A study of Mus musculus with 24 samples.

Results

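The Fos and Jun family was followed in RNA of 4 mouse brain areas after chronic mild stress (CMS). It was taken as all probe sets that the platform annotation assigns to Fos, Fosb, Fosl1, Fosl2, Jun, Junb, Jund or Atf3. These were 8 of the 18193 genes with a probe set of their own and 12 of the 45037 probe sets tested. The mice were wild-type C57BL/6 males of 6 to 8 weeks, kept under CMS (unpredictable stressors on 6 days per week for 4 weeks) or left unstressed as controls. Amygdala (Amy), hippocampus (Hippo), cerebral cortex (CC) and prefrontal cortex (PFC) were dissected, which gave 8 groups of 3 arrays, 24 Affymetrix whole-genome arrays in all. The study's results name independent mice and its methods pooled RNA, so the p-values below may measure only the spread between these samples, which may be technical. The 4 areas of a treatment may come from the same 3 mice, so that arrays of different areas may not be independent.

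Fos and Jun proteins bind DNA as pairs through a leucine zipper and form the transcription factor AP-1. Fos, Fosb and Junb are immediate early genes, whose transcription rises within minutes of synaptic activity through the factors CREB and SRF and then shuts off, so that their RNA is widely read as a trace of recent neuronal activity. Jund is expressed more steadily, Fosl1 and Fosl2 encode the Fra proteins, and Atf3 encodes a stress-induced partner of the same bZIP class.

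RefSeq (GRCm38.p6) places Fos at chr12:85473890-85477274, Fosb at chr7:19302696-19310118, Fosl1 at chr19:5447698-5455938 and Fosl2 at chr5:32136472-32157840. Jun lies at chr4:95049036-95052222, Junb at chr8:84976909-84978748, Jund at chr8:70697739-70700616 and Atf3 at chr1:191170296-191183333. The 250 bases before the start were searched on both strands in the 7 members with a RefSeq promoter entry, all but Fosl1. The short core of the CREB site, TGACG, was present in 4 of these 7 (Fos, Fosb, Junb and Atf3) and in 17.8% of all 32851 promoter windows of the same length. It also forms part of the whole CREB site TGACGTCA, which was in none of the 7 and in 1.55% of all windows. The AP-1 site TGACTCA was in none of the 7 (4.46% of all windows), as was the CArG box of SRF (1.47%). Its variant TGACATCA was in Jun alone (2.93% of all windows), and TATAAA was in Fos alone (12.4%). These matches are a description of the letters in the window and not evidence of binding. Sites farther from the start, CArG boxes among them, were not searched, so their absence from a window is not their absence from the gene. The Fos sequence is printed whole, as the promoter of the member most used as an activity marker, and capitals mark TGACG and TATAAA. It is chr12:85473640-85473889, plus strand, and the cores begin 129 and 66 bases before the start.
Fos: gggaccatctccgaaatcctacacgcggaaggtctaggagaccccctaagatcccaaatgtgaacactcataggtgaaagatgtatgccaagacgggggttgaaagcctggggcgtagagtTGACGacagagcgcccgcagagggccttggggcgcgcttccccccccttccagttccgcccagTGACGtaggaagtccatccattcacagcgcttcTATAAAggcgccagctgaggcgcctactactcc

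For the other members that hold a site, 30 bases around it are shown so that the sites can be compared, all on the minus strand. Capitals mark TGACG or its reverse CGTCA, and in Jun the variant TGACATCA. The Fosb stretch, chr7:19310089-19310118, lies inside the annotated gene at its outer edge, since the start in its promoter entry lies inside that gene. The others are chr8:84978838-84978867 (Junb), chr1:191183334-191183363 (Atf3) and chr4:95052249-95052278 (Jun).
Fosb: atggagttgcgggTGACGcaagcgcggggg
Junb: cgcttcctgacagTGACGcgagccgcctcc
Atf3: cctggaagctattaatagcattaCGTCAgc
Jun: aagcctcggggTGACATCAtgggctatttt

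All values are log2 signals, with each probe set shifted to a median of 0 over the 24 arrays. They show differences between arrays for 1 probe set, and neither an absolute level nor an order between genes can be read from them. The comparison of CMS and control was made within each area with limma. A probe set passed the test at a Benjamini-Hochberg adjusted p under 0.05 over all 45037 probe sets, and it was called when its fold change was also over 2. The 7 hippocampal markers averaged 2.95 in the CMS hippocampus and 3.01 in the control hippocampus, against -0.61 to 0.13 elsewhere. The 5 amygdala markers averaged 1.29 in Amy of controls and -0.34 in Amy of CMS mice, beside 1.05 and 0.87 in the control and CMS hippocampus and -0.49 to -0.16 in the cortical areas of either treatment, and the part of this difference in the amygdala results was not tested.

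Members of the family were lower after CMS in each of the 4 areas. The called probe sets were all lower, and they numbered 1 of 12 in Amy (Fosb), 1 in Hippo (Fos), 3 in CC (Fos, Fosb and Fosl2) and 4 in PFC (Fos, Fosb, Fosl2 and Atf3). Over all probe sets, 0.777%, 0.104%, 0.244% and 0.109% were called lower in these areas. None of the 12 was called higher, against 0.413%, 0.546%, 0.875% and 0.0999% of all probe sets. By the adjusted p alone, 5, 9, 7 and 8 of the 12 were lower, against backgrounds of 6.88%, 35%, 3.67% and 2.48%. The hippocampal background was large, and 3 of the 9 there were probe sets that barely varied. The 9 became 5 after each array was centred on its median or quantile normalized, 3 without CMS replicate 3, 5 without CMS replicate 1 and 4 without CMS replicate 2, control replicate 1 or control replicate 2. A single probe set was higher by the adjusted p alone, for Jund in Amy, where 11.4% of all probe sets were, and none in the other areas (backgrounds 5.68%, 5.49% and 2.78%). The 3 CMS arrays lay below all 3 controls in 6, 9, 10 and 8 of the 12, against 12.7%, 51.9%, 42.9% and 9.8% of all probe sets. They lay above them in 4, 0, 0 and 3, against 46.4%, 8.67%, 12.6% and 39.6%. The median difference of the 12 was -0.17 in Amy, -0.13 in Hippo, -0.33 in CC and -0.88 in PFC. The medians of all probe sets were 0.03, -0.05, -0.03 and 0.02.

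**Figure D1:**
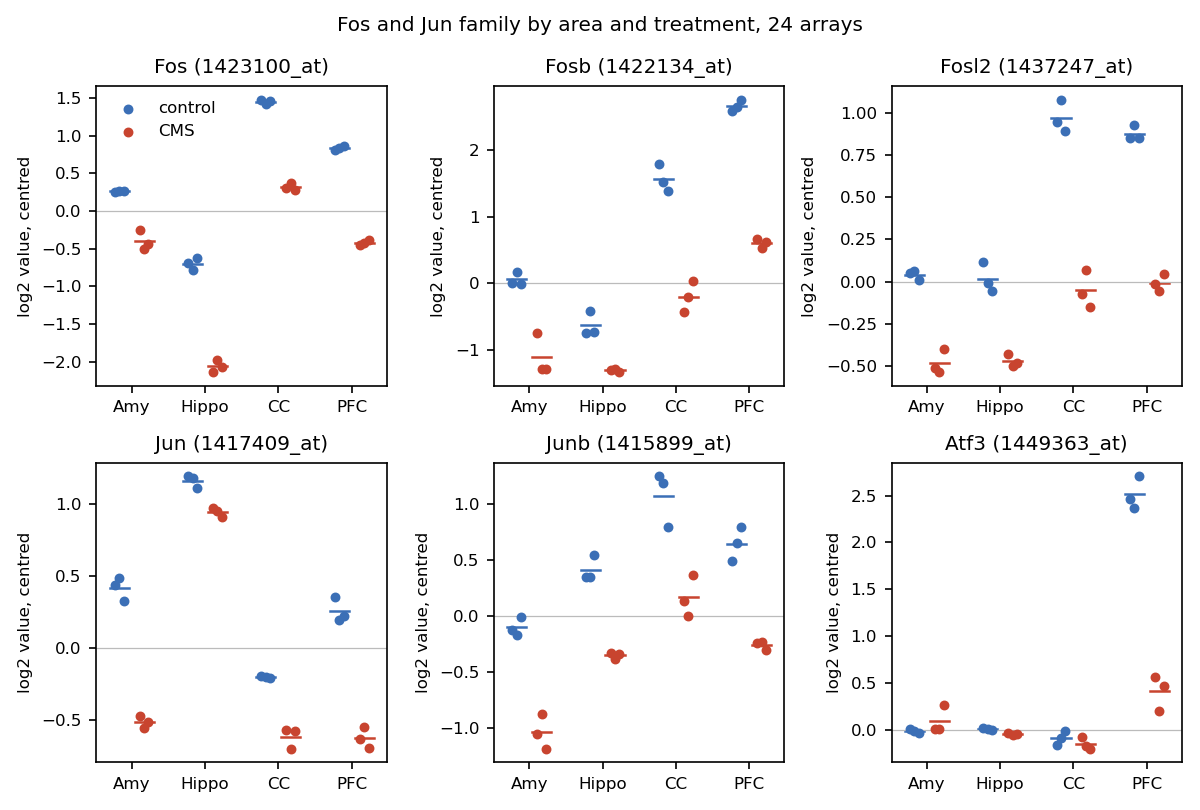
Centred log2 value (y axis) of 6 member probe sets on all 24 arrays, by area (x axis) and treatment (blue, control and red, CMS); each point is an array and each line the mean of 3. For a gene with several probe sets, the one that passed as lower in the most areas is shown. Fos, Fosb, Fosl2 (1437247_at), Jun (1417409_at) and Junb lie lower with CMS in each of the 4 areas without overlap of the arrays. The Fosl2 probe set not shown overlapped in Amy, Hippo and CC, and that of Jun in Hippo. Atf3 stands above 2 in the control prefrontal cortex and below 0.6 on every other array.

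Fos, the founding member and the most used activity marker, fell in all 4 areas. In the hippocampus its control arrays read -0.69, -0.78 and -0.62 and its CMS arrays -2.14, -1.97 and -2.07, a fall by 1.36 on the log2 scale (SE 0.06, adjusted p = 0.00234). In the prefrontal cortex the controls read 0.81, 0.84 and 0.86 and the CMS arrays -0.45, -0.42 and -0.39, a fall by 1.25 (SE 0.02, adjusted p = 0.000218). The groups were far apart beside their spread in both areas. In the cerebral cortex the controls read 1.48, 1.42 and 1.46 and the CMS arrays 0.31, 0.38 and 0.28 (log2 difference -1.13, SE 0.03, adjusted p = 0.000402). The amygdala held the smallest change, from 0.26, 0.27 and 0.27 in controls to -0.26, -0.51 and -0.44 with CMS (log2 difference -0.67, SE 0.07, adjusted p = 0.00731). There the fold was 1.59, below the fold threshold, while the other areas had folds of 2.57, 2.38 and 2.19.

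Fosb, whose truncated product is the long-lived marker of repeated stimulation, also fell in all 4 areas. In the prefrontal cortex its controls read 2.58, 2.65 and 2.76 and its CMS arrays 0.67, 0.53 and 0.62, 4.16-fold lower (log2 difference -2.06, SE 0.06, adjusted p = 0.000932). In the cerebral cortex the controls read 1.79, 1.53 and 1.38 and the CMS arrays -0.42, -0.21 and 0.03, 3.41-fold lower (SE 0.16 on the log2 scale, adjusted p = 0.00505). The array does not tell the full-length from the truncated transcript here, since 1 probe set stands for the gene.

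In the amygdala the Fosb controls read 0.01, 0.17 and -0.01, while the CMS arrays read -0.74, -1.28 and -1.28 (log2 difference -1.16, SE 0.17, adjusted p = 0.0171). This was the only call of the family there, and it was lost without any 1 of the 3 control arrays or without CMS replicate 2. The log2 difference then lay between -1.19 and -1.07 and the adjusted p between 0.0501 and 0.073. In the hippocampus the controls read -0.74, -0.41 and -0.73 and the CMS arrays -1.30, -1.29 and -1.33 (log2 difference -0.68, SE 0.10, adjusted p = 0.0147). The test was no longer passed there without CMS replicate 2 (adjusted p = 0.0513) or CMS replicate 3 (0.0597).

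Fosl2, which encodes Fra-2, had 2 probe sets, both of which were called in a cortical area. The probe set 1437247_at fell in all areas, by 0.53 in Amy, 0.49 in Hippo, 1.03 in CC and 0.88 in PFC on the log2 scale (adjusted p = 0.00413, 0.00875, 0.00324 and 0.00231). Its cortical call sat at the fold threshold. The controls there read 0.95, 1.08 and 0.89 and the CMS arrays -0.08, 0.07 and -0.15, a fold of 2.04 that dropped under 2 once each array was centred on its median, or without CMS replicate 3 or control replicate 2.

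The other Fosl2 probe set, 1422931_at, was noisier. In the prefrontal cortex its controls read 0.96, 1.16 and 1.15 and its CMS arrays -0.83, -0.16 and -0.02 (log2 difference -1.43, SE 0.23, adjusted p = 0.0371). With CMS replicate 2, CMS replicate 3 or any 1 control array left out, the adjusted p rose to between 0.0616 and 0.129, with log2 differences between -1.59 and -1.39. In the cerebral cortex it read 0.16, 0.08 and 0.84 in controls and -0.04, 0.92 and 0.00 with CMS, so that single arrays of both groups stood near 0.9 and the groups overlapped (log2 difference -0.06, SE 0.35). It passed in neither the amygdala (-0.21, SE 0.23) nor the hippocampus (0.14, SE 0.10).

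Fosl1, which encodes Fra-1, barely varied in these tissues. Its probe sets ranged over 0.08 and 0.11 log2 units across all 24 arrays, and 4.67% and 11.7% of all probe sets had a smaller range. Together with 1440265_at of Jund, which ranged over 0.10, they stayed within 0.03 of the median of all probe sets on every array. All 3 passed the test in the hippocampus, with differences of -0.04 each, where the median of all probe sets was -0.05. None of the 3 passed there after each array was centred on its median or quantile normalized, or without any 1 of the 3 CMS arrays, control replicate 1 or control replicate 2.

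Jun, the founding member of its family, fell in all 4 areas by its probe set 1417409_at and passed the fold threshold in none. In the amygdala its controls read 0.44, 0.49 and 0.33 and its CMS arrays -0.47, -0.55 and -0.52 (log2 difference -0.93, SE 0.05, adjusted p = 0.00178). In the prefrontal cortex the controls read 0.35, 0.20 and 0.22 and the CMS arrays -0.64, -0.55 and -0.69 (log2 difference -0.88, SE 0.06, adjusted p = 0.0068). The falls in the cerebral cortex and the hippocampus were smaller. They amounted to -0.41 (SE 0.04, adjusted p = 0.00662) and -0.22 (SE 0.03, adjusted p = 0.0136), and the latter no longer passed without CMS replicate 3 (adjusted p = 0.052), control replicate 1 (0.0542) or control replicate 2 (0.0531).

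The second Jun probe set, 1448694_at, gave a like fall in CC (-0.43, SE 0.03, adjusted p = 0.00323) and a fall by 0.61 in the prefrontal cortex (adjusted p = 0.00873). In the amygdala it read 0.27, 0.18 and 0.15 in controls and 0.13, 0.04 and 0.04 with CMS. That difference of -0.13 (SE 0.04, adjusted p = 0.109) did not pass, so the probe sets of Jun gave different sizes in the amygdala. The hippocampal difference of -0.16 (SE 0.11) did not pass either.

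Junb, an immediate early Jun protein, fell by a similar amount in each area and also missed the fold threshold in each. The log2 differences were -0.94 (SE 0.09) in Amy, -0.77 (SE 0.06) in Hippo, -0.91 (SE 0.16) in CC and -0.90 (SE 0.08) in PFC. The adjusted p-values were 0.00646, 0.00603, 0.0284 and 0.0112. In the amygdala the controls read -0.12, -0.17 and 0.00 and the CMS arrays -1.05, -0.88 and -1.19. In the cerebral cortex the controls read 1.25, 1.19 and 0.79 and the CMS arrays 0.14, 0.00 and 0.36, the widest spread of the 4 areas. There the test was lost without any 1 of the 3 CMS arrays, control replicate 1 or control replicate 2 (adjusted p 0.0539 to 0.0955), and also after centring each array (0.0542).

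Jund, the most steadily expressed Jun gene in many tissues, moved in opposite directions. By 1449117_at it rose in the amygdala, from -0.28, -0.29 and -0.19 in controls to 0.15, -0.04 and 0.02 with CMS (log2 difference 0.30, SE 0.06, adjusted p = 0.0309). It fell in the cerebral cortex, from 0.00, 0.10 and 0.15 to -0.15, -0.21 and -0.16 (log2 difference -0.25, SE 0.05, adjusted p = 0.0334). Both were small beside the falls of Fos and Fosb. The rise no longer passed without CMS replicate 3 or any 1 control array (adjusted p 0.0671 to 0.114), nor the fall without any 1 CMS array, control replicate 2 or control replicate 3 (0.0603 to 0.114). In the hippocampus (-0.11, SE 0.09) and the prefrontal cortex (-0.13, SE 0.07) the groups overlapped and did not pass.

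Atf3, a stress-induced bZIP factor that pairs with Jun proteins, differed in the prefrontal cortex. Its controls there read 2.47, 2.37 and 2.71 and its CMS arrays 0.56, 0.21 and 0.46, which was 4.30-fold lower (log2 difference -2.10, SE 0.13, adjusted p = 0.00673) and at the 0.0133 percentile of the differences of all probe sets. Elsewhere the gene lay near the centre on all arrays. The values were -0.03 to 0.01 in the control amygdala against 0.01, 0.01 and 0.27 with CMS, and -0.16 to -0.01 in the control cerebral cortex against -0.20 to -0.08 with CMS, and neither passed. The hippocampal difference of -0.05 passed the adjusted p (0.0325) and was -0.01 once each array was centred on its median (adjusted p = 0.454).

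**Figure D2:**
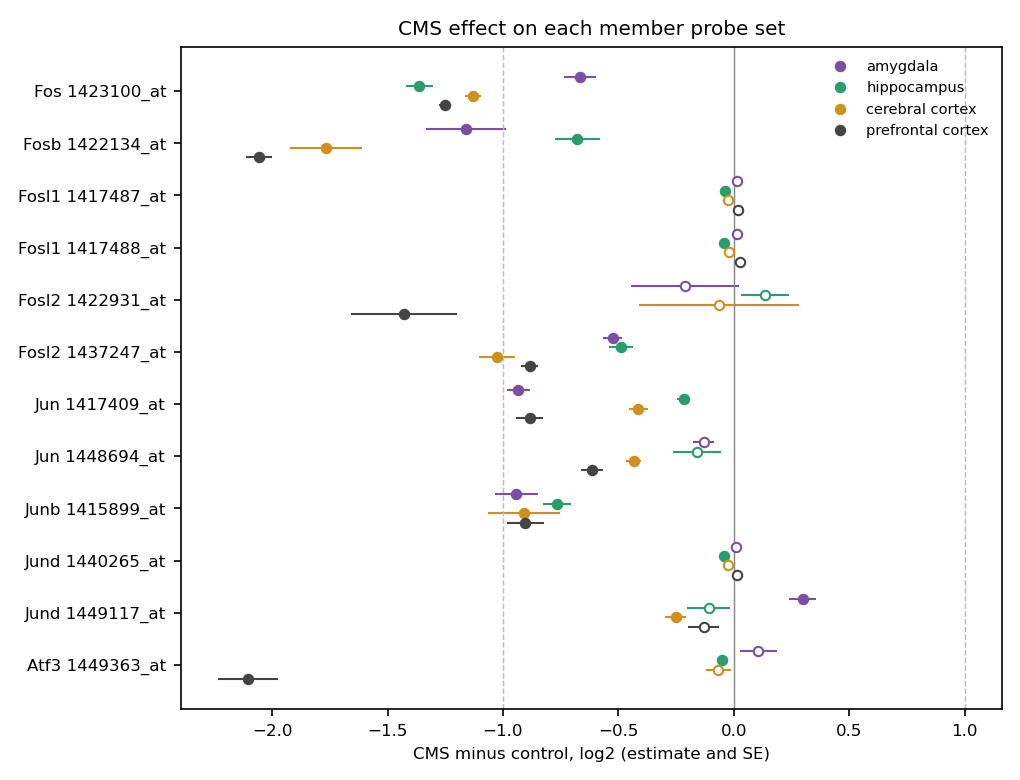
CMS minus control on the log2 scale (x axis, estimate and SE from limma) for the 12 member probe sets (y axis) in 4 areas (colours); filled points passed the adjusted p of 0.05 and dashed lines mark a fold of 2. Most filled points lie left of 0, with Fosb and Atf3 in the prefrontal cortex beyond -2, while Fosl1 and 1440265_at of Jund stay at 0.

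The size of the CMS effect was compared between areas in a fit of all 24 arrays. An F test over the areas passed for 11 of the 12 probe sets, against 55% of all probe sets, and in 3 of the 12 the areas differed by more than 1 log2 unit (Fosb, 1422931_at of Fosl2 and Atf3; 6.05% of all). For Atf3 the fall in PFC exceeded the change in Amy by 2.21 (SE 0.12, adjusted p = 2.52e-09), in Hippo by 2.05 and in CC by 2.04. For Fosb the prefrontal fall exceeded that of Hippo by 1.38 (SE 0.20, adjusted p = 0.000141) and that of Amy by 0.90 (adjusted p = 0.00509). The difference between the prefrontal and the cerebral cortex was 0.29 (SE 0.20, adjusted p = 0.283), so the 2 cortical falls of Fosb were not told apart.

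Fos followed another order. Its fall in Amy was smaller than in Hippo by 0.69 (SE 0.07, adjusted p = 4.29e-06), than in PFC by 0.59 and than in CC by 0.46. The differences among the other 3 areas did not pass the test (adjusted p 0.0556 to 0.274). The closest to passing was Hippo minus CC, at -0.23 (SE 0.07). Jun by 1417409_at fell more in Amy than in Hippo, by 0.72 (SE 0.07, adjusted p = 1.09e-06), and no difference was shown between amygdala and prefrontal cortex (0.05, SE 0.07). The fall of Junb was not shown to differ between areas (F test, adjusted p = 0.742), its largest difference being 0.18 with an SE of 0.16. The effect on Jund by 1449117_at in Amy differed from that in CC by 0.55 (SE 0.10, adjusted p = 0.000656).

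In controls the member values differed between the areas. The array controls differed between these areas as well. Probe sets for poly-A control transcripts read -4.04 to -3.99 in Hippo, 0.34 to 0.40 in Amy, 0.27 to 0.59 in CC and -0.63 to -0.45 in PFC. The hybridisation controls averaged -1.11, 0.01, 0.15 and -0.17 in the same order. Their part in the area results was not tested. By the F test over the 4 areas, 10 of the 12 probe sets differed, against 49.1% of all probe sets, and 7 of the 12 differed by more than 1 log2 unit between some pair of areas, against 12.5%. The 10 included 1417488_at of Fosl1, which barely varied (largest difference 0.07, F test, adjusted p = 0.0325). The count was 9 after each array was centred on its median or quantile normalized. Fos was highest in CC (1.45 ± 0.03, SD, n = 3), followed by PFC (0.83 ± 0.03), Amy (0.27 ± 0.01) and Hippo (-0.70 ± 0.08). Each neighbour in that order differed (limma, adjusted p at most 2.04e-06). Fosb was highest in PFC (2.66 ± 0.09), then CC (1.57 ± 0.21), Amy (0.06 ± 0.10) and Hippo (-0.63 ± 0.19), and again each neighbour differed (adjusted p at most 0.00138).

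Jun had the reverse distribution. It was highest in the hippocampus by both probe sets (1.17 ± 0.05 and 1.15 ± 0.20, SD, n = 3) and lowest in the cerebral cortex (-0.20 ± 0.00 and -0.19 ± 0.05). The amygdala read 0.42 ± 0.08 and the prefrontal cortex 0.26 ± 0.08 by 1417409_at. By 1448694_at the prefrontal and the cerebral cortex did not differ beyond their spread (adjusted p = 0.313). Junb read 1.08 ± 0.25 in CC, 0.65 ± 0.15 in PFC, 0.41 ± 0.11 in Hippo and -0.10 ± 0.08 in Amy. Its prefrontal and hippocampal levels did not differ beyond their spread (adjusted p = 0.129).

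Fosl2 by 1437247_at split into cortical and other areas. It read 0.97 ± 0.10 in CC and 0.88 ± 0.04 in PFC (SD, n = 3), which did not differ (adjusted p = 0.212), against 0.04 ± 0.03 in Amy and 0.02 ± 0.09 in Hippo, which did not differ either (0.728). The other Fosl2 probe set, 1422931_at, did not show this split. It was higher in PFC (1.09 ± 0.11) than in CC (0.36 ± 0.42, limma, adjusted p = 0.0319). Its CC and Hippo (-0.06 ± 0.13) did not differ beyond their spread (adjusted p = 0.162). Atf3 was 2.52 ± 0.17 in the control prefrontal cortex and between -0.08 and 0.01 in the other areas, none of which differed from its neighbour (adjusted p = 0.832 and 0.688). Jund by 1449117_at ran from 0.35 ± 0.09 in PFC over 0.08 ± 0.08 in CC and -0.01 ± 0.04 in Hippo to -0.25 ± 0.05 in Amy (F test, adjusted p = 6.68e-05), and CC and Hippo did not differ beyond their spread (adjusted p = 0.214).

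The area order of several members was narrower after CMS. The span of the 4 area means went from 3.29 in controls to 1.91 with CMS for Fosb, from 2.60 to 0.56 for Atf3 and from 0.96 to 0.48 for Fosl2 (1437247_at). It went from 2.15 to 2.38 for Fos, from 1.37 to 1.58 for Jun (1417409_at) and from 1.18 to 1.21 for Junb. The cerebral cortex stayed the highest area for Fos and Junb, PFC for Fosb and Atf3 and Hippo for Jun. For Fosl2 the highest mean changed area, from CC to PFC by 1437247_at and from PFC to CC by 1422931_at, and neither change was tested. By 1437247_at the CMS means lay within their spread (PFC -0.01 ± 0.05, CC -0.05 ± 0.11). By 1422931_at the CMS mean of CC rested on 1 array at 0.92, beside -0.04 and 0.00.

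**Figure D3:**
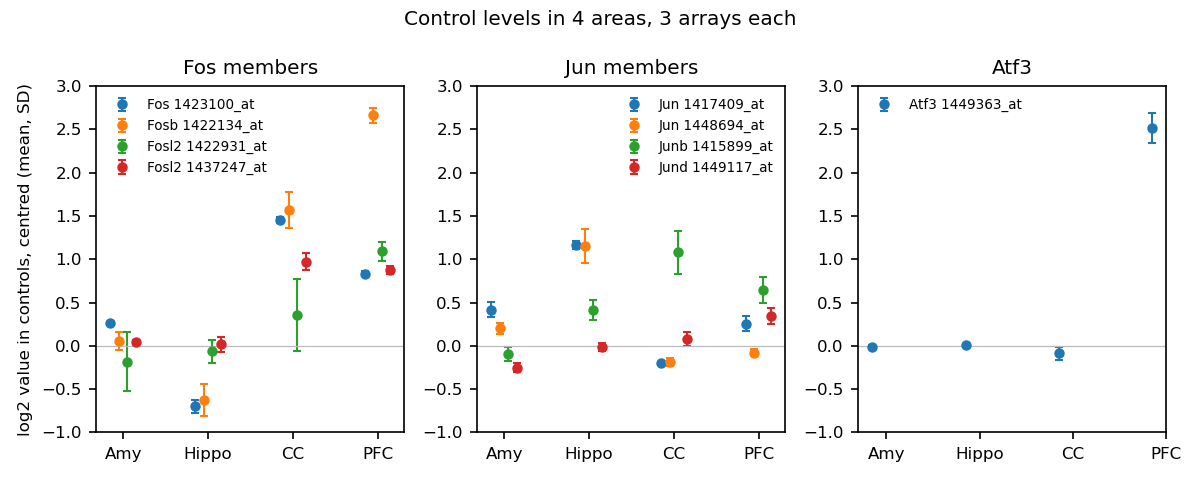
Centred log2 value in controls (y axis, mean and SD of 3 arrays) by area (x axis) for the member probe sets that varied over the arrays. Fos, Fosb and Fosl2 by 1437247_at are higher in the 2 cortical areas, while Fosl2 by 1422931_at is highest in the prefrontal cortex. Jun is highest in the hippocampus by both probe sets, and Atf3 stands apart in the prefrontal cortex alone. Values of different probe sets share no absolute scale.

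The genes that surround the family were read as gene means over 18193 genes. Of the other AP-1 partners and related bZIP factors, 20 had a probe set of their own, and none was called. Those lower by the adjusted p numbered 2, 4, 3 and 0 in Amy, Hippo, CC and PFC, and those higher 2, 1, 1 and 2. All genes gave 8.84%, 24.9%, 3.99% and 3.92% lower and 10.5%, 4.66%, 5.95% and 4.45% higher. Cebpb, a C/EBP factor of the bZIP class, had the largest change among them, -0.91 (SE 0.10, adjusted p = 0.0108) in the hippocampus. Jdp2, a repressor of AP-1 sites, was 0.17 higher in Amy, 0.14 higher in PFC and 0.15 lower in Hippo.

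The 24 measured kinases and factors upstream of the family were not called in any area. By the adjusted p 4, 3, 3 and 1 were lower and 5, 5, 8 and 1 higher, in the same order of areas. Of all genes, 8.84%, 24.9%, 3.99% and 3.92% were lower and 10.5%, 4.66%, 5.95% and 4.45% higher. In the cerebral cortex the higher ones included Mef2c, an activity-dependent factor of neurons (0.63, SE 0.03, adjusted p = 0.000857), Braf, a kinase at the head of the ERK cascade (0.49, adjusted p = 0.00757), and Elk1, a partner of SRF (0.18, adjusted p = 0.0204). Srf itself was lower in the hippocampus by 0.12 (adjusted p = 0.0417). Prkaca, a catalytic subunit of protein kinase A, was lower in Amy (-0.30), hippocampus (-0.14) and cerebral cortex (-0.17).

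Among the 10 feedback phosphatases and mRNA decay factors, none was called, and 2, 5, 3 and 4 were lower and 1, 0, 0 and 1 higher by the adjusted p, beside 8.84%, 24.9%, 3.99% and 3.92% of all genes lower and 10.5%, 4.66%, 5.95% and 4.45% higher. Dusp1, the phosphatase that is induced with Fos and switches off its kinases, was lower in all areas, by 0.20 in Amy (adjusted p = 0.0436), 0.71 in Hippo (0.00569), 0.84 in CC (0.0015) and 0.78 in PFC (0.00109). Dusp5, another ERK phosphatase, was lower by 0.85 in CC, 0.40 in PFC and 0.22 in Hippo, and in Amy its difference of -0.87 (SE 0.24, adjusted p = 0.0629) did not pass. Zfp36, which destabilizes AU-rich transcripts such as Fos, passed in no area.

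Of the 14 genes with described AP-1 sites, 3, 5, 0 and 1 were lower by the adjusted p and 3, 0, 1 and 1 higher. The same shares of all genes, 8.84%, 24.9%, 3.99% and 3.92% lower and 10.5%, 4.66%, 5.95% and 4.45% higher, stand beside them. The single call was Penk, the enkephalin precursor, which was higher in CC by 1.55 (SE 0.06, adjusted p = 0.000721), where 0.192% of all genes were called higher. Beside it, the 7 measured markers of striatal projection neurons, which express Penk themselves, were all higher in the CMS cerebral cortex, 5 of them called, with an array mean of -0.85 to -0.80 against -2.53 to -2.29 in controls. The part of this difference in the Penk value was not tested. Nts, the neurotensin precursor, was lower in Amy (-0.21), hippocampus (-0.97) and prefrontal cortex (-0.58).

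Of the 26 other immediate early genes, more were lower than higher in each area. By the adjusted p 8, 17, 18 and 15 of them were lower, where 8.84%, 24.9%, 3.99% and 3.92% of all genes were, and 4, 0, 1 and 2 were higher (10.5%, 4.66%, 5.95% and 4.45% of all genes). Of the 26, 3, 3, 5 and 3 were called lower, where 0.44%, 0.11%, 0.165% and 0.0934% of all genes were. The list's median was -0.09 in Amy, -0.28 in Hippo, -0.41 in CC and -0.45 in PFC. Npas4, a factor induced by calcium influx in neurons, was called in all 4 areas, at -1.26, -1.77, -1.14 and -1.19. Arc, which encodes a protein of synaptic plasticity, was called in Hippo (-1.18), cerebral cortex (-1.71) and prefrontal cortex (-1.20) and was -0.97 in Amy. Egr2 was called in Hippo (-1.39) and CC (-1.13), and Nr4a1 in CC (-1.12) and PFC (-1.15). Ier2 was called in Amy (-1.05) and CC (-1.25), and Btg2 in Amy (-1.27). Egr1, a further activity marker, was higher there by 0.30 (SE 0.04, adjusted p = 0.0141) and lower in Hippo (-0.51), CC (-0.41) and PFC (-0.23).

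**Figure D4:**
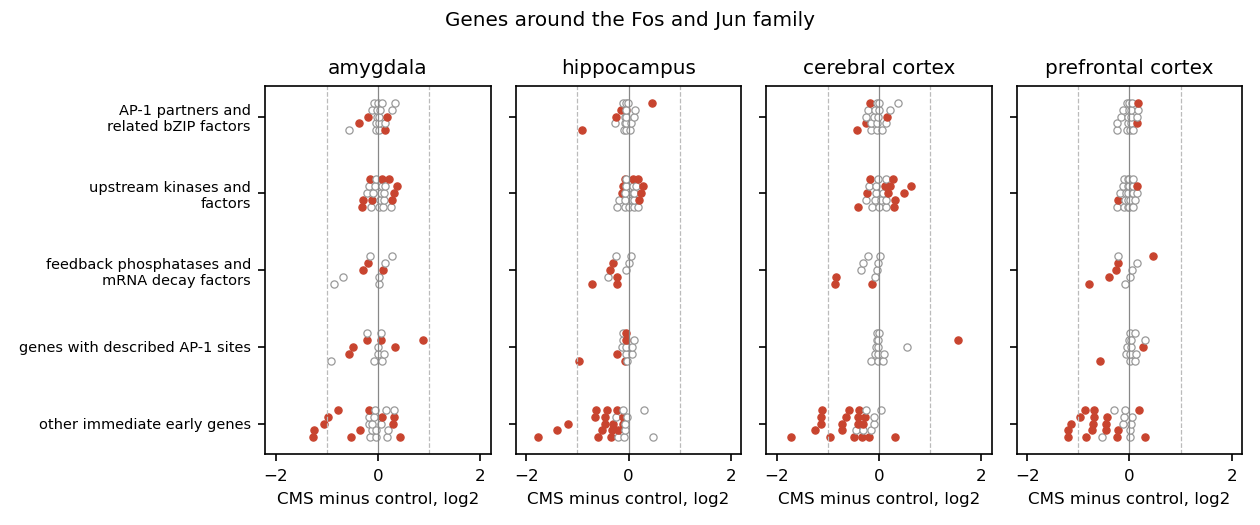
CMS minus control on the log2 scale (x axis) of single genes in 5 lists around the family (y axis), in 4 areas (panels); red points passed the adjusted p of 0.05, open points did not, and dashed lines mark a fold of 2. The immediate early genes spread to the left in each area, and the single point beyond a fold of 2 to the right is Penk in the cerebral cortex.

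The genes whose centred values lay closest to each member over the 24 arrays, were taken by the root mean square difference. Of the 9 nearest to Fos, Fosb and Junb, Egr2, Egr1, Npas4, Nr4a1 and Btg2 were in the list of immediate early genes. For Fos the closest were Dusp1 (0.41), Egr2 (0.44) and Egr1 (0.48), for Fosb Npas4 (0.60), Lpcat4 (0.70) and Apold1 (0.74), and for Junb Nr4a1 (0.20), Btg2 (0.33) and Tiparp (0.34). For Jun the closest were Prelp (0.26), Tspan18 (0.28) and Fgfr1 (0.28), for Fosl2 Nab2 (0.25), Zfp575 (0.31) and Retreg2 (0.32), and for Atf3 Klhl30 (0.43), Ppm1j (0.48) and Tenm4 (0.50). These arrays share area and treatment, and the measure describes likeness of pattern only.

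Markers of other cell types moved with treatment beside these results, and their part in the member values was not tested. Of all genes, 0.44%, 0.11%, 0.165% and 0.0934% were called lower in Amy, Hippo, CC and PFC. Those called higher were 0.143%, 0.143%, 0.192% and 0.154%. By the adjusted p alone, 8.84%, 24.9%, 3.99% and 3.92% were lower and 10.5%, 4.66%, 5.95% and 4.45% higher. In the cerebral cortex all 9 choroid plexus markers were called lower, with array means of -1.50 to -1.41 with CMS and 1.80 to 1.92 in controls. In the prefrontal cortex 5 of the 9 were lower by the adjusted p and 4 did not pass (array means -1.05 to -0.95 against 0.14 to 0.36). Only 1 of the 9, Ttr, was called there, and the median difference of the list was -0.50. In the same area 6 of 7 neutrophil markers were called higher (4.41 to 4.66 against 0.92 to 1.04). In the hippocampus no choroid plexus marker was called, and 3 of the 9 were higher by the adjusted p. There 5 of 8 markers of thalamus and habenula were called higher (0.74 to 0.80 against -0.44 to -0.41). In the amygdala 3 of the 5 amygdala markers were called lower, and 4 of 4 oligodendrocyte markers were lower by the adjusted p (-0.51 to -0.46 against -0.05 to 0.02). Of the 7 hippocampal markers there, Fibcd1 (-1.81) and Spink8 (-1.33) were called lower. By the adjusted p 3 of the 7 were lower, 1 was higher and 3 did not pass. Ttr, the transthyretin gene of choroid plexus, was called lower in Amy (-3.70), CC (-6.91) and PFC (-7.15). Of the 9 choroid plexus markers, Ttr alone passed as lower in Amy, while 2 passed as higher there, 1 of them called. The neutrophil gene S100a8 was called higher in all 4 areas (2.97, 1.43, 3.60 and 3.57), and S100a9 in Amy (2.81), CC (3.80) and PFC (3.39). In Amy and in CC these 2 were the only neutrophil markers to pass, and the other 5 of the 7 did not. In Hippo 1 of the 7 passed as higher, 1 as lower and 5 did not pass. None of the 5 neuron markers was called in any area. They averaged 0.01 with CMS and -0.18 in controls in the amygdala, where 3 passed as higher, and the group means differed by less than 0.1 in the other areas. Fewer cells of a type and less RNA per cell cannot be told apart in these tissue samples. The bacterial hybridisation controls averaged 0.82 with CMS and 0.01 in controls in Amy, -1.48 and -1.11 in Hippo, 0.01 and 0.15 in CC and 0.14 and -0.17 in PFC.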

How the data were processed

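The 24 brain RNA samples, 3 for each treatment and area, were hybridised to Affymetrix whole-genome mouse arrays. GCRMA in GeneSpring GX and a baseline normalization were used by the authors, with no version in the sources read here. The deposited log2 values have a median of 0 for each probe set over the 24 arrays (largest absolute median 5e-07). Absolute levels and signal over background are therefore lost, and the precision is limited by the number of arrays. Affymetrix's 64 control probe sets were not tested. Gene symbols came from the platform annotation, and genes were means of their probe sets.

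Each area was fitted with limma 3.58.1 in R 4.3.3, CMS against control, two-sided, with Benjamini-Hochberg adjustment over 45037 probe sets or 18193 genes. Areas in controls (12 arrays, 6 pairs) and the CMS effect between areas (24 arrays) were tested with F tests and pairwise contrasts that treat the arrays as independent, although areas may share mice. All members were named. Of each list, counts were given with the 3 called genes of largest change per area, or all where fewer were called, and further examples picked with their values known. The members and lists were chosen with earlier results of these data known. The likeness rule took the 3 genes with the smallest root mean square difference for members whose group means spanned over 1. Alternatives were the methods' t-test, array weights, quantile normalization, centring of each array, the trend and robust options of limma, leaving out the less variable 50% of probe sets, gene means, a replicate block, the replicate number of a treatment as a random block for the mouse, a fit of all arrays, other thresholds and leaving out each array. The scripts were tested on simulated data. The sample descriptions give ages that rise from sample to sample, against the common range used here, so age was not used. Promoter sequences and gene positions are from RefSeq (GRCm38.p6), and protein sequences were not used here. Plots used matplotlib 3.10.9 under Python 3.11.15.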

Additional observations from a re-analysis of the deposited data

Results flagged for a closer look

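In 11 of the 12 member probe sets the CMS effect differed between the 4 areas (limma, F test, adjusted p under 0.05). The adjusted p was 1.26e-09 for Atf3, 4.79e-07 for Jun 1417409_at, 7.54e-06 for Fos, 8.46e-05 for Fosl2 1437247_at, 0.000134 for Fosb, 0.00141 for Jun 1448694_at, 0.00181 for Jund 1449117_at and 0.00832 for Fosl2 1422931_at. For Fosl1 it was 0.0145 (1417487_at) and 0.00821 (1417488_at) and for Jund 1440265_at it was 0.0269, with largest differences between areas of 0.06, 0.07 and 0.06 log2 units, and none of these 3 passed once each array was centred on its median (adjusted p 0.356 to 0.574). Over all probe sets 55% passed this test.

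The direction itself differed for Jund 1449117_at, with a difference of 0.30 in the amygdala and -0.25 in the cerebral cortex. Its 3 CMS arrays lay above all controls in the amygdala, as in 46.4% of all probe sets. In the cerebral cortex they lay below all controls, as in 42.9% of all probe sets. The rise no longer passed without CMS replicate 3 or any 1 control array. The fall no longer passed without any 1 CMS array, control replicate 2 or control replicate 3. Egr1 also differed in direction, higher with CMS in the amygdala and lower in the other 3 areas, and that difference was not tested. Groups of 3 arrays were not searched for outlying arrays.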

How the results depend on the processing

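Without a fold threshold the counts of member probe sets past the adjusted p were 6 in Amy (1 called), 9 in Hippo (1 called), 7 in CC (3 called) and 8 in PFC (4 called), and requiring a difference over 1 left 3 of the 11 whose CMS effect differed between areas. With gene means in place of probe sets, 7 of 8 genes differed between areas in their CMS effect. Leaving out each array gave 0 to 1 calls in Amy, 1 in each case in Hippo, 2 to 4 in CC, 3 to 4 in PFC, 9 to 12 probe sets that differed between areas in controls and 10 to 11 whose CMS effect differed. The replicate block left 0 calls in Amy, 1 in Hippo, 2 in CC and 1 in PFC. The replicate numbers did not pair the samples: deviations of same-numbered CMS and control arrays of an area correlated between -0.06 and 0.01, and 1, 1, 0 and 0 of the 3 CMS arrays correlated best with their own number. By the adjusted p alone, Hippo went from 9 to 5 with quantile normalization, centring of each array or the less variable probe sets left out, and to 3 to 9 over the arrays left out, and the block left 1 lower in Amy, 1 in Hippo, 4 in CC and 1 in PFC. The counts of calls and of F tests moved by at most 1.5 times in the other settings. With the replicate number within a treatment as a random block for the mouse, the counts that differed between areas were 10 in controls and 11 for the CMS effect. The sign of 2 results reversed: Atf3 in the hippocampus was 0.00496 after quantile normalization, and Fosl2 1422931_at in the cerebral cortex was 0.23 with array weights and between -0.38 and 0.17 over the arrays left out (above 0 without CMS replicate 1, CMS replicate 3 or control replicate 3), and the cause was not tested. With the methods' t-test, Junb and Jund 1449117_at in the cerebral cortex (adjusted p = 0.0912 and 0.0884) and Fosl2 1422931_at in the prefrontal cortex (0.112) no longer passed.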
